A study of Mus musculus with 6 samples.

Results

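The genes described here are 37 members of fatty acid metabolism, and they were compared between the F4/80high and F4/80low tumor-associated macrophages (TAMs) of a mouse melanoma. They were taken by name as 6 genes of uptake and intracellular carriage, 4 of activation, 4 of triglyceride storage, 3 of lipolysis, 2 of the carnitine shuttle, 10 of mitochondrial beta-oxidation, 3 of electron transfer and 5 of synthesis and desaturation. Each of the 37 names matched 1 row in all 6 libraries, out of 23424 genes in the files.

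Cells take up fatty acids with the help of membrane and cytosolic proteins and couple them to coenzyme A, which commits them either to storage as triglyceride in lipid droplets or to oxidation. For oxidation the acyl group crosses the inner mitochondrial membrane as a carnitine ester and is shortened in a 4-step cycle, whose first step hands electrons to the respiratory chain through the electron transfer flavoprotein. In macrophages, lipid uptake, droplet turnover and the balance of synthesis against oxidation are known to differ with the activation state.

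The TAMs came from untreated wild-type female C57Bl/6J mice, which were 8 weeks of age when YUMM1.7 cells, a mouse melanoma line, were placed in the dermis. On day 21 the tumors were digested and live CD45+CD11b+F4/80+ cells were sorted into F4/80high and F4/80low TAMs. The study's methods add a lineage-negative (Lin-) gate before this sort. Each subset had 3 libraries from pooled tumors of 3 independent experiments, and replicates of the same number in both subsets were taken as a pair. The subsets shared strain, sex, tumor line, day and lack of treatment, and differed in the sort gate. Bulk RNA from poly(A) libraries was counted per gene, and F4/80high replicates 1, 2 and 3 summed to 30292061, 43604373 and 16045281 reads, against 32967733, 32560608 and 16204810 for F4/80low.

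Replicate 3 of both subsets stood apart from the other libraries, and the study treats it as a second batch. The features *Lars2*, *Gm23935* and *Gm15564* together took 17.1% of the counts of F4/80high replicate 3 and 16.1% of F4/80low replicate 3 (95% Wilson intervals 17.12 to 17.15% and 16.05 to 16.09%), and 0.378 to 0.609% in the other 4 libraries. Intervals on shares of reads cover counting error only, since no molecular identifiers were counted. Differences between subsets are therefore given for each replicate pair as well as in a fit with a batch term, and for batch 1 alone for the 6 members with the smallest unadjusted p. Values per library are CPM, reads of a gene relative to the library's total after scaling by edgeR's TMM method. A log2 fold change above 0 means a higher level in F4/80high TAMs, SE is its standard error, and adjusted p is Benjamini-Hochberg adjusted over the 14645 protein-coding genes tested by edgeR's quasi-likelihood test. A gene was called where the adjusted p was below 0.05 and the difference exceeded 1 on the log2 scale in either direction.

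The sort gene *Adgre1*, which encodes F4/80, was at 273, 539 and 360.3 CPM in F4/80high replicates 1, 2 and 3 and at 243, 327 and 183 CPM in F4/80low replicates 1, 2 and 3. It was higher in F4/80high TAMs in 3 of 3 pairs, and the edgeR fit gave a log2 fold change 0.67, SE 0.30, adjusted p = 0.664. All 12 macrophage markers on the list were detected in every library, the most abundant being the lysozyme gene *Lyz2* at 4674, 16127 and 2044 CPM in F4/80high and 5925, 6489 and 3237 CPM in F4/80low TAMs. Their summed level was 12580.0, 32690.0 and 8106 CPM in F4/80high and 12920.0, 15320.0 and 8376 CPM in F4/80low TAMs (two-sided exact permutation test, p = 0.9, where 0.1 is the smallest p that 3 against 3 libraries allow). The sum is led by *Lyz2*, and by gene 8 of the 12 were higher in F4/80high TAMs in the fit, with a median log2 fold change of 0.54, and 6 were higher in all 3 pairs (50%, against 16.1% of all genes). edgeR with batch called 0 of the 12, edgeR with the replicate pair as a block called *Mertk* and the complement genes *C1qa*, *C1qb* and *C1qc* higher in F4/80high TAMs (4 of 12, against 0.519% of all genes), and DESeq2 with batch called *Mertk* (1 of 12, against 1.02%).

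All 37 members passed the filter on low counts, and the lowest count of any member in any library was 15. No member was called between the subsets by edgeR with the batch term (0 of 37), and neither was any of the 14645 genes (0.0%). The lowest adjusted p among members was 0.434. Before adjustment, 4 members had a p under 0.05 (against 7.6% of all genes), *Slc27a1* on the F4/80high side and *Slc27a4*, *Mgll* and *Dgat2* on the F4/80low side. That is 1 of 37 against 3.28% of all genes for F4/80high, and 3 of 37 against 4.32% for F4/80low. The same 4 were the members that differed by more than 1 on the log2 scale in either direction, as did 16.4% of all genes. With the block, 6 of 37 had an unadjusted p under 0.05, against 9.91% of all genes.

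The other tools and designs gave few calls among members. edgeR with the replicate pair as a block in place of batch called *Dgat2* (1 of 37, against 0.519% of all genes). DESeq2 with the batch term called *Slc27a4* (1 of 37, against 1.02%). DESeq2 with the block, a design chosen after seeing the data, called *Slc27a1*, *Slc27a4*, *Dgat2* and *Mgll* (4 of 37, against 2.43%). Without F4/80high replicate 1, edgeR called *Slc27a1* (1 of 37, against 0.396% of 14406 genes).

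The direction of the module as a whole was not stable. In the edgeR fit 20 members were higher in F4/80high and 17 in F4/80low TAMs, with a median log2 fold change of 0.02 against 0.01 over all genes. The median over members was -0.17 in replicate pair 1, 0.18 in pair 2 and -0.01 in pair 3, beside 0.01, -0.06 and -0.03 over all genes. Members higher in F4/80high TAMs numbered 15, 23 and 18 in pairs 1, 2 and 3. Without F4/80high replicate 2, the number in the fit was 10 and the median was -0.15. A difference in the same direction in all 3 pairs was found for 7 members higher in F4/80high (18.9%, against 16.1% of all genes) and 6 higher in F4/80low (16.2%, against 17.9%). The 7 became 5 with RLE size factors and 9 with library size alone.

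**Figure D1:**
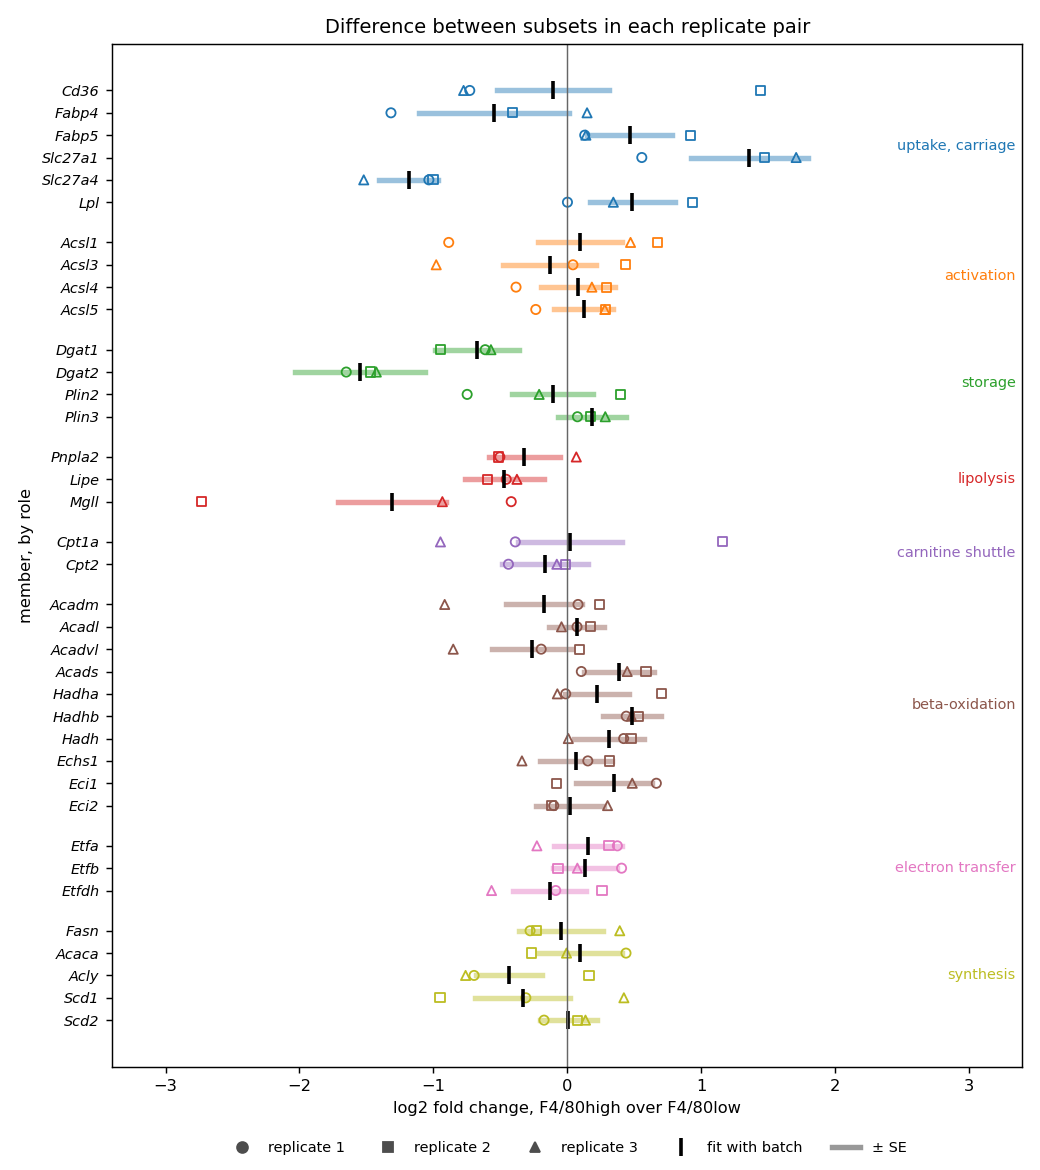
Log2 fold change of F4/80high over F4/80low (x axis) for each of the 37 members (y axis, grouped and colored by role). Open symbols are the 3 replicate pairs, black ticks the edgeR fit with batch and bars ± 1 SE of that fit (3 libraries a subset). *Slc27a4*, *Dgat2* and *Mgll* lie left of 0 and *Slc27a1* right of 0 in all 3 pairs, while *Cd36* and *Cpt1a* are on opposite sides in different pairs.

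Levels of different members can be compared only roughly, within a batch, as TPM, which divides by the gene length in the files. How that length was obtained is not given, and it need not be that of the transcript present. For *Fabp4* it was 4489 bases, the span of its whole locus, and too long a length lowers the TPM. In the 4 libraries of batch 1 *Plin2*, which coats lipid droplets, had the highest mean of the 37 at 275 TPM, from 175 in F4/80high replicate 1 to 355 in F4/80high replicate 2. *Etfb* at 141, *Acadl* at 133, *Dgat1* at 132, *Etfa* at 123, *Acsl5* at 120 and *Acly* at 108 TPM followed. These 6 overlapped each other across the 4 libraries, so that their order is within their spread, and of the 6 *Dgat1* alone reached into the range of *Plin2*. *Fabp4* at 1.67, *Acaca* at 1.92 and *Lpl* at 9.55 TPM were the lowest. Among pairs of related genes, *Fabp5* (83.9 TPM) was above *Fabp4* (1.67 TPM) and *Scd2* (62.8 TPM) above *Scd1* (10.9 TPM) in every library, although reads of such close copies can be assigned to either one.

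The fatty acid transport proteins gave the clearest contrast among the uptake genes, with a pair of them on opposite sides. *Slc27a4*, which encodes the transport protein FATP4, was at 50.2, 49.1 and 90.2 CPM in F4/80high replicates 1, 2 and 3 and at 103, 98.5 and 259 CPM in F4/80low replicates 1, 2 and 3. Every F4/80low library was above every F4/80high library, which held for 1 of 37 members and 2.9% of all genes. The edgeR fit gave a log2 fold change -1.18, SE 0.22, adjusted p = 0.434, and the 3 pairs gave -1.03, -1.003 and -1.52. With the replicate block the adjusted p in edgeR was 0.0524, and DESeq2 with batch gave 4.49e-04. In batch 1 alone the log2 fold change was -1.02.

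*Slc27a1*, which encodes the related protein FATP1, was at 33.4, 110.03 and 25.5 CPM in F4/80high and 22.7, 39.6 and 7.76 CPM in F4/80low replicates 1, 2 and 3. It was higher in F4/80high TAMs within each pair (0.56, 1.47 and 1.71), but the groups overlapped, since F4/80low replicate 2 was above F4/80high replicates 1 and 3. The edgeR fit gave a log2 fold change 1.36, SE 0.44, adjusted p = 0.524, with 1.20 in batch 1 alone. Its adjusted p was 0.125 in edgeR with the block, 0.122 in DESeq2 with batch and 0.0494 in edgeR without F4/80high replicate 1. Without F4/80high replicate 2, the highest library, the log2 fold change was 0.74 and the adjusted p in edgeR 0.7801. As a ratio of TPM, *Slc27a4* over *Slc27a1* was 0.953, 0.283 and 2.24 in the F4/80high replicates against 2.87, 1.57 and 21.1 in the F4/80low replicates. The direction of this ratio in each pair follows from the pair values of the 2 genes and is not a further result.

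The 250 bases before the annotated start of these genes are shown because they are 2 members of 1 family that lay on opposite sides in all 3 pairs. They are RefSeq sequences of GRCm38.p6, 5′ to 3′ on the plus strand, at chr2:29802384-29802633 for *Slc27a4* and chr8:71568621-71568870 for the first of 3 RefSeq starts of *Slc27a1*. No capitals are used, since none of the motifs listed further on lies in them.
Slc27a4: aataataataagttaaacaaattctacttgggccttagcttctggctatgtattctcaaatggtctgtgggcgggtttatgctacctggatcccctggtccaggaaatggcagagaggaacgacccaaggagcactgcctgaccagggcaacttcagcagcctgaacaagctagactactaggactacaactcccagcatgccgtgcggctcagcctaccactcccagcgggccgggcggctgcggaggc
Slc27a1: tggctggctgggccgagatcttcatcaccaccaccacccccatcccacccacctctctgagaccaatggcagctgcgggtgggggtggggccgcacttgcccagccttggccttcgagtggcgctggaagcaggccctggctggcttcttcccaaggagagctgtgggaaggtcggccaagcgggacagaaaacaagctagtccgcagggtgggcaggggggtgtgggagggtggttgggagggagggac

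The other uptake genes did not separate the subsets. *Fabp5*, a cytosolic carrier of fatty acids, was at 76.02, 170.1 and 74.3 CPM in F4/80high and 69.4, 89.98 and 67.4 CPM in F4/80low TAMs (log2 fold change 0.47, SE 0.32), and F4/80high replicate 2 was the one high library. *Lpl*, the lipase that frees fatty acids from lipoproteins, was at 17.7, 34.5 and 11.03 and 17.6, 17.996 and 8.67 CPM (log2 fold change 0.49, SE 0.32), again with F4/80high replicate 2 the highest. Both were higher in F4/80high TAMs in all 3 pairs, *Lpl* in pair 1 by only 0.0017 on the log2 scale. *Cd36*, the scavenger receptor and fatty acid translocase, was at 13.5, 21.9 and 33.4 CPM in F4/80high and 22.3, 8.04 and 57.2 CPM in F4/80low TAMs, with pair values of -0.73, 1.45 and -0.77. *Fabp4*, the carrier typical of adipocytes, was at 1.51, 2.02 and 3.68 and 3.79, 2.68 and 3.31 CPM (log2 fold change -0.54, SE 0.56). The adjusted p of these 4 genes in edgeR was 0.729 or higher.

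**Figure D2:**
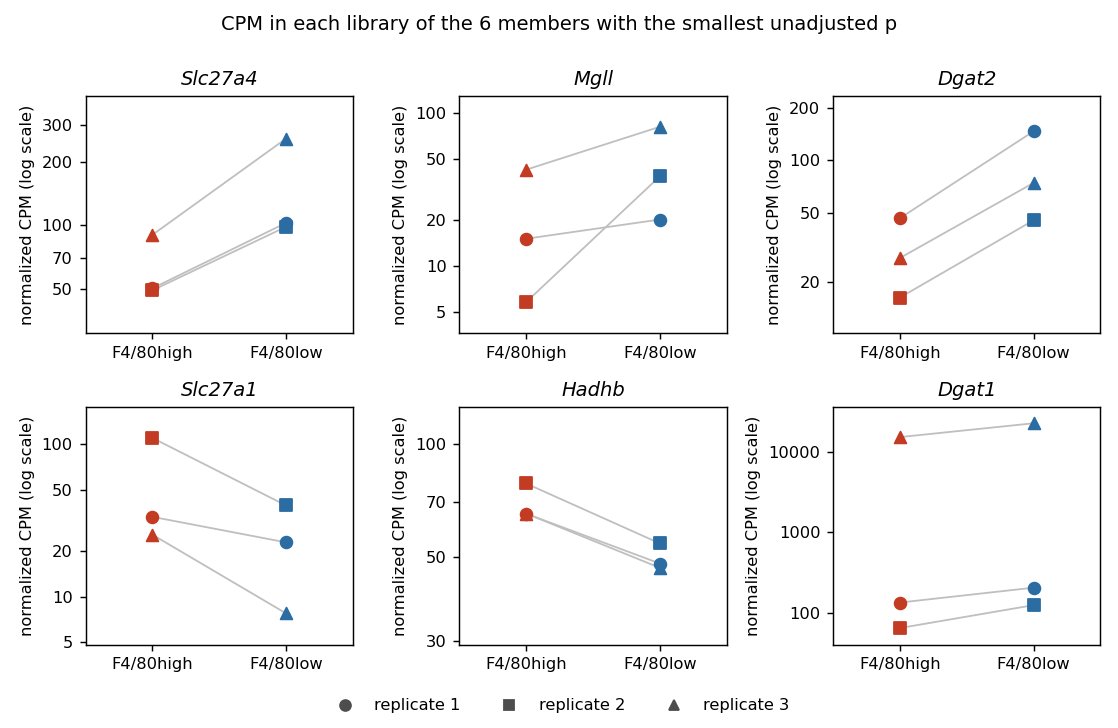
TMM-scaled CPM (y axis, log scale, different range in each panel) in the 3 F4/80high and 3 F4/80low libraries for the 6 members with the smallest unadjusted p. Lines join libraries of 1 replicate pair, and each line runs in the same direction within a panel, while *Slc27a4* and *Hadhb* alone have subsets that do not overlap.

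The acyl-CoA synthetases, which activate long-chain fatty acids, did not separate the subsets. *Acsl5* was at 108, 149 and 136 CPM in F4/80high and 127, 122 and 112 CPM in F4/80low TAMs (log2 fold change 0.12, SE 0.22). *Acsl1* was at 26.02, 46.7 and 45.9 and 48.1, 29.2 and 33.1 CPM (log2 fold change 0.10, SE 0.32), and *Acsl3*, which sits on lipid droplets, at 13.8, 20.3 and 10.9 and 13.4, 14.97 and 21.6 CPM (log2 fold change -0.13, SE 0.35). *Acsl4*, which favors arachidonic acid, was at 46.5, 89.8 and 967 and 60.6, 73.2 and 851 CPM, with both batch 2 libraries far above the rest. None of the 4 held its direction in all 3 pairs. The 95% intervals of the 4 log2 fold changes lay between -0.92 and 0.81, so a difference of 2-fold was outside each of them. The loci of *Acsl3* and *Acsl5* overlap the protein-coding genes *Utp14b* and *Zdhhc6*, and the strand used in counting is not given in the sources used here.

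Of the 4 storage genes, both triglyceride synthases were lower in F4/80high TAMs in all 3 pairs, *Plin3* was higher in all 3 and *Plin2* changed sign, and edgeR with batch called 0 of them. *Dgat2*, which adds the last acyl chain of triglyceride, was at 46.6, 16.4 and 27.6 CPM in F4/80high and 146, 45.3 and 74.2 CPM in F4/80low replicates 1, 2 and 3. It was lower in F4/80high TAMs within each pair by a similar amount (-1.65, -1.47 and -1.43), and the groups overlapped only in that F4/80high replicate 1 exceeded F4/80low replicate 2. The edgeR fit gave a log2 fold change -1.55, SE 0.48, adjusted p = 0.524, and edgeR with the replicate block called it lower in F4/80high TAMs (log2 fold change -1.52, adjusted p = 0.0300). DESeq2 with batch gave an adjusted p of 0.085, and batch 1 alone a log2 fold change of -1.60. Without F4/80low replicate 1, the highest library, it was -0.92 (adjusted p = 0.9801 in edgeR).

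*Dgat1*, the other enzyme for that step, was at 135, 64.9 and 15199.7 CPM in F4/80high replicates 1, 2 and 3 and at 206, 125 and 22561 CPM in F4/80low replicates 1, 2 and 3. The batch 2 libraries exceeded the others by more than any difference between subsets. Within pairs it was lower in F4/80high TAMs in 3 of 3 (-0.61, -0.94 and -0.57). The edgeR fit gave a log2 fold change -0.68, SE 0.31, adjusted p = 0.681, the adjusted p with the block was 0.099 in edgeR and 0.0210 in DESeq2 (log2 fold change -0.71, short of the fold threshold for a call), and batch 1 alone gave a log2 fold change of -0.73. The droplet proteins did not separate the subsets. *Plin2* was at 196, 442 and 173 CPM in F4/80high and 329, 336 and 199.5 CPM in F4/80low TAMs (log2 fold change -0.11, SE 0.30), and *Plin3* at 56.7, 84.2 and 38.9 and 53.7, 74.5 and 31.9 CPM (log2 fold change 0.18, SE 0.25), higher in F4/80high TAMs in all 3 pairs by 0.08 to 0.28 on the log2 scale.

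All 3 lipases of stored triglyceride had a negative log2 fold change in the fit, and 2 of them were lower in F4/80high TAMs in all 3 pairs. *Mgll*, monoglyceride lipase, which acts last in the sequence, was at 15.04, 5.79 and 42.6 CPM in F4/80high and 20.1, 38.5 and 81.3 CPM in F4/80low replicates 1, 2 and 3. The groups overlapped, and pair 2 set the size of the difference (pairs -0.42, -2.73 and -0.93), with F4/80high replicate 2 the lowest library. The edgeR fit gave a log2 fold change -1.31, SE 0.40, adjusted p = 0.507. The adjusted p was 0.296 in edgeR with the block and 0.0998 in DESeq2 with batch, and batch 1 alone gave a log2 fold change of -1.49. *Lipe*, hormone-sensitive lipase, was at 25.04, 15.8 and 15.03 CPM in F4/80high and 34.3, 23.9 and 19.5 CPM in F4/80low TAMs (log2 fold change -0.47, SE 0.29, adjusted p = 0.716 in edgeR). *Pnpla2*, adipose triglyceride lipase, which acts first, was at 89.96, 61.5 and 65.3 and 127, 87.9 and 62.3 CPM (log2 fold change -0.32, SE 0.27, adjusted p = 0.79 in edgeR), lower in F4/80high TAMs in pairs 1 and 2 only.

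The RefSeq window before the first start of *Mgll* (GRCm38.p6, chr6:88724162-88724411, plus strand, 5′ to 3′) is shown because *Mgll* is the lipase with the largest difference and holds 1 of the motifs searched. Capitals mark CACGTG, the palindromic E-box, 44 bases before the start.
Mgll: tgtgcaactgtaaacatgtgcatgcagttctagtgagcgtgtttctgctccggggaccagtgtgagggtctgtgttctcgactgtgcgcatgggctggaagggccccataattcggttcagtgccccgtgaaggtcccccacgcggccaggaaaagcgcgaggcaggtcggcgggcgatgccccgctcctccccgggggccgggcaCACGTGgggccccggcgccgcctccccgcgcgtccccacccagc

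The carnitine shuttle and beta-oxidation genes gave no call between the subsets, and several changed sign between pairs. *Cpt1a*, which makes the carnitine ester at the outer membrane and is regarded as the controlled step of oxidation, was at 45.7, 98.6 and 25.2 CPM in F4/80high and 59.7, 44.1 and 48.6 CPM in F4/80low replicates 1, 2 and 3. F4/80high replicate 2 was the highest and F4/80high replicate 3 the lowest of the 6, and the pairs disagreed in sign (-0.39, 1.16 and -0.95; log2 fold change 0.02, SE 0.39). In batch 1 alone its log2 fold change was 0.47. *Cpt2*, which reverses the step inside the mitochondrion, was at 10.8, 15.3 and 3.9999 and 14.7, 15.5 and 4.22 CPM (log2 fold change -0.17, SE 0.32), lower in F4/80high TAMs in all 3 pairs.

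Of the 10 beta-oxidation genes, 8 were higher in F4/80high TAMs in the fit, with a median log2 fold change of 0.15, and 0 had an unadjusted p under 0.05 in edgeR with batch. By pair, 7, 8 and 5 of the 10 were higher in F4/80high TAMs, against 51.8, 46.6 and 48.7% of all genes. *Hadhb*, the beta subunit of the mitochondrial trifunctional protein, was at 65.3, 78.6 and 65.4 CPM in F4/80high and 48.1, 54.5 and 46.9 CPM in F4/80low replicates 1, 2 and 3. Every F4/80high library was above every F4/80low library, which held for 1 of 37 members and 2.3% of all genes. The 3 pairs were close to each other (0.44, 0.53 and 0.48), and the edgeR fit gave a log2 fold change 0.49, SE 0.22, adjusted p = 0.661, with 0.49 in batch 1 alone.

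*Hadha*, the alpha subunit of the same complex, was at 67.8, 96.96 and 77.1 CPM in F4/80high and 68.3, 59.5 and 81.1 CPM in F4/80low TAMs (log2 fold change 0.22, SE 0.24). It was higher in F4/80high TAMs in pair 2 alone (pairs -0.01, 0.70 and -0.07), and part of it overlaps the gene *Gareml*. The genes of the subunits lie head to head on chromosome 5, *Hadha* at chr5:30118304-30155162 on the minus strand and *Hadhb* at chr5:30155248-30184593 on the plus strand of GRCm38 in GENCODE M21. The 85 bases between them (chr5:30155163-30155247) are shown because in M21 the subunits are transcribed away from its ends, as RefSeq sequence of GRCm38.p6 on the plus strand, 5′ to 3′.
Hadha-Hadhb: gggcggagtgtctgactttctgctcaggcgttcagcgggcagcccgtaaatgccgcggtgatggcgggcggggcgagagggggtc

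Among the acyl-CoA dehydrogenases, which catalyze the first step for different chain lengths, *Acads* (short chains) was at 24.7, 32.2 and 10.9 CPM in F4/80high and 22.97, 21.4 and 7.99 CPM in F4/80low TAMs (log2 fold change 0.39, SE 0.26). *Acadm* (medium chains) was at 47.3, 60.2 and 14.9 and 44.7, 50.96 and 28.2 CPM (log2 fold change -0.17, SE 0.29). *Acadl* (long chains) was at 87.1, 98.5 and 113 and 82.8, 87.3 and 116 CPM (log2 fold change 0.07, SE 0.21), the smallest SE of the 4. *Acadvl* (very long chains) was at 26.3, 24.8 and 1.62 and 30.1, 23.3 and 2.97 CPM (log2 fold change -0.26, SE 0.30), and its batch 2 values rest on 15 and 26 counts. *Acads* was higher in F4/80high TAMs in all 3 pairs, and the other 3 changed sign between pairs.

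The remaining enzymes of the cycle also kept within their spread. *Hadh*, the short-chain hydroxyacyl-CoA dehydrogenase, was at 33.5, 43.8 and 14.9 CPM in F4/80high and 25.03, 31.5 and 14.8 CPM in F4/80low TAMs, higher in F4/80high in all 3 pairs. *Echs1*, the enoyl-CoA hydratase, had a log2 fold change of 0.06, and the isomerases for unsaturated chains *Eci1* and *Eci2* had 0.35 and 0.02. The 95% intervals of all 10 beta-oxidation genes lay between -0.94 and 0.99. Of the electron transfer genes, *Etfa* was at 73.4, 95.8 and 32.8 CPM in F4/80high and 56.7, 77.2 and 38.3 CPM in F4/80low TAMs (log2 fold change 0.16, SE 0.25). Its partner *Etfb* was at 57.98, 55.5 and 6.38 and 43.8, 58.2 and 6.05 CPM (log2 fold change 0.13, SE 0.24). *Etfdh*, which passes their electrons to ubiquinone, was at 37.3, 33.6 and 10.7 and 39.6, 28.1 and 15.9 CPM (log2 fold change -0.13, SE 0.27). The intervals of these 3 lay between -0.74 and 0.72, and each changed sign between pairs. *Acadvl*, *Echs1* and *Etfdh* overlap *Dvl2*, *Paox* and *4930579G24Rik*.

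None of the 5 synthesis genes separated the subsets. *Acly*, which makes cytosolic acetyl-CoA from citrate, was at 152, 194 and 54.4 CPM in F4/80high and 246, 173 and 92.1 CPM in F4/80low TAMs (log2 fold change -0.44, SE 0.25, adjusted p = 0.699 in edgeR), lower in F4/80high in pairs 1 and 3. *Acaca*, acetyl-CoA carboxylase, was at 14.8, 8.04 and 26.5 and 10.9, 9.66 and 26.6 CPM (log2 fold change 0.10, SE 0.31). *Fasn*, fatty acid synthase, was at 37.3, 22.6 and 41.9 and 45.2, 26.5 and 31.9 CPM (log2 fold change -0.05, SE 0.32). These are the enzymes of the route from citrate to palmitate, and none was in the same direction in all 3 pairs. *Scd1* and *Scd2*, the stearoyl-CoA desaturases, had log2 fold changes of -0.33 (SE 0.35) and 0.0075 (SE 0.21). *Scd2* was at 113, 111 and 75.2 CPM in F4/80high and 128, 105 and 68.5 CPM in F4/80low TAMs, and *Scd1* at 12.6, 14.6 and 20.2 and 15.6, 28.1 and 15.1 CPM. Across the 37 members, 26 had a 95% interval inside 1 on either side of 0 on the log2 scale, and the uptake genes had none of them.

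RefSeq promoter windows, from 250 bases before to 50 after a start, were matched for 30 of the 37 members, in 35 windows, and were searched on both strands for 6 motifs. AGGTCA, the hexamer bound by nuclear receptors, was in 20% of member windows and 16.3% of 32851 windows of all genes. The members that held it were *Acadm*, *Acadvl*, *Acly*, *Cd36*, *Cpt1a*, *Echs1* and *Plin2*. The PPAR element, searched as 2 copies of AGGTCA with any 1 base between them, was in 0 member windows and 0.0396% of all, and TCAAGGTCA, the estrogen-related receptor element that also contains the hexamer, in 0 and 0.423%. CACGTG was in 11.4% of member windows (*Lipe*, *Mgll*, *Plin2* and another start of *Slc27a1*) and 7.15% of all. TCACNCCAC, a sterol regulatory element, was in the *Acsl1* window and 1.24% of all, and the NRF1 element, searched as GCGC, AT and GCGC without a gap, in the *Etfdh* window and 0.971% of all. These matches describe letters in these windows and no binding was measured.

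Levels of many members in replicate 3 stood apart from those in replicates 1 and 2. Of the 37 members, 22 had an adjusted p under 0.05 for the batch term in the same edgeR fit, 6 higher and 16 lower in batch 2, beside 42.6% of all genes (20.0% higher and 22.7% lower). Batch 2 is 1 experiment with 1 library of each subset, so that the experiment and the batch cannot be told apart. The contrast is 1 experiment against 2, and the fit counted the paired libraries of an experiment as independent although they deviated together, so that its p-values and SEs are too small. Among beta-oxidation genes 7 of 10 had an adjusted p under 0.05 and were lower in batch 2, with a median log2 fold change of -1.21 over the 10, and so were all 3 electron transfer genes. The median was -0.51 over all members and -0.35 over all genes. The log2 fold change of batch 2 over batch 1 was -3.54 (SE 0.39) for *Acadvl*, -3.11 (SE 0.30) for *Etfb* and -2.37 (SE 0.34) for *Eci1*. *Eci1* and *Etfb* are the shortest members, at 1091 and 1139 bases. This fold change correlated with log2 length at 0.411 over 10449 genes with mean log2 CPM of at least 2, and at 0.293 over the members. With GC content the correlations were -0.211 and -0.154. The part of length and GC in the lower levels was not tested. The 6 higher in batch 2 were *Dgat1*, *Acsl4*, *Mgll*, *Cd36*, *Acaca* and *Slc27a4*.

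*Dgat1* had the largest batch difference of the members, a log2 fold change of 7.17 (SE 0.37), and *Acsl4* followed at 3.75 (SE 0.29). *Dgat1* held 140602 counts in F4/80high replicate 3 and 197750 in F4/80low replicate 3, or 0.876% and 1.22% of their totals (95% Wilson intervals 0.872 to 0.881% and 1.215 to 1.226%). That made it the 10th and the 7th most counted gene of those libraries, whereas it ranked between 676 and 2667 in batch 1. Over *Dgat2*, which serves the same step, its counts were 1.41 to 3.97 times as many in the batch 1 libraries and 551 and 304 times as many in batch 2. No other gene of the M21 annotation overlaps *Dgat1* at chr15:76502015-76511953. Of the adipocyte markers, *Adipoq* was at 0 in both batch 2 libraries, and the 5 analysed markers summed to 0.934, 0.3303 and 0.324 CPM in F4/80high and 1.05, 1.01 and 3.42 CPM in F4/80low replicates 1, 2 and 3. The high share of *Lars2*, *Gm23935* and *Gm15564* was in the same 2 libraries as the high *Dgat1*, and its part in that level was not tested.

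**Figure D3:**
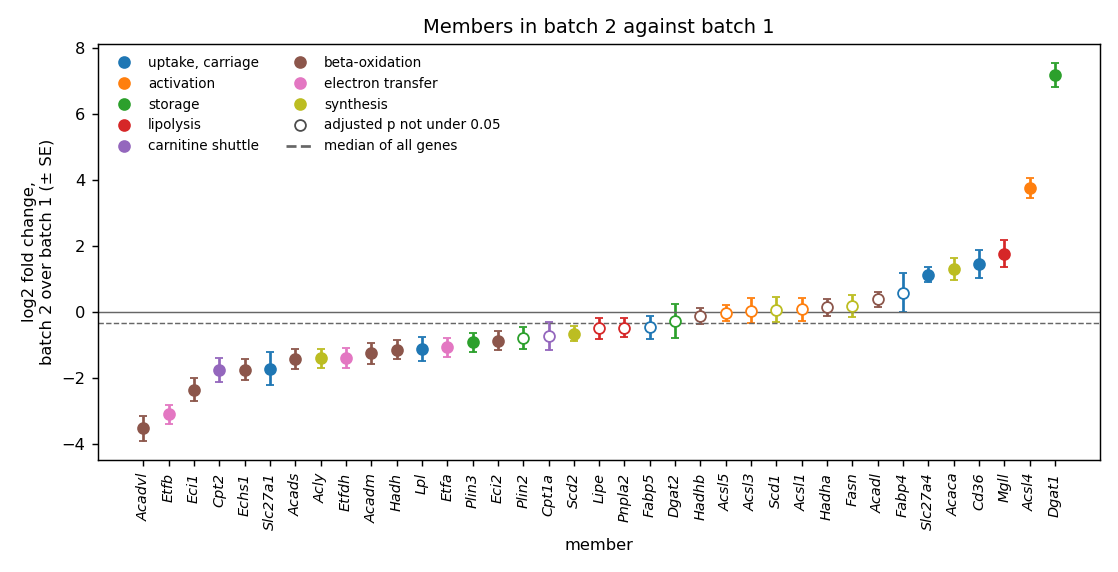
Log2 fold change of batch 2 over batch 1 (y axis) for each member (x axis, ordered by value, colored by role), with bars of ± 1 SE from the edgeR fit. Filled points have an adjusted p under 0.05, the dashed line is the median of all genes at -0.35, and *Dgat1* at 7.17 stands above all other members.

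The other genes of the pathway, 128 entries in 6 lists, gave 115 that were tested. The fit put 54 on the F4/80high side and 61 on the F4/80low side, with a median log2 fold change of -0.02, and 0 were called by edgeR with batch or with the block. Unadjusted p-values under 0.05 were found for 6 of 115 on the F4/80high side, against 3.28% of all genes, and for 4 of 115 on the F4/80low side, against 4.32%. DESeq2 with batch called *G0s2* (1 of 115, against 1.02% of all genes), and DESeq2 with the block called *G0s2* and *Fads1* (2 of 115, against 2.43%).

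Among the other genes of esterification, droplets and lipolysis, 9 were higher and 16 lower in F4/80high TAMs. *G0s2*, which encodes an inhibitor of adipose triglyceride lipase, was at 299, 119.8 and 64.1 CPM in F4/80high and 508, 752 and 134 CPM in F4/80low replicates 1, 2 and 3. It was lower in F4/80high TAMs within each pair and the groups overlapped (log2 fold change -1.42, SE 0.36, adjusted p = 0.44 in edgeR, and adjusted p = 0.0158 in DESeq2 with batch). *Agpat4*, an acyltransferase of phosphatidic acid synthesis, was at 35.7, 30.1 and 34.2 and 64.7, 58.9 and 64.3 CPM without overlap (log2 fold change -0.91, SE 0.22, adjusted p = 0.44 in edgeR, and adjusted p = 0.0129 in DESeq2 with batch). Of all genes, 2.9% had every F4/80low library above every F4/80high library, as *Agpat4* did, and 2.3% had the reverse. Its relative *Agpat3* had a log2 fold change of 0.62 and the lysophospholipid hydrolase *Abhd12* of 0.68, both higher in F4/80high TAMs in all 3 pairs.

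In synthesis, elongation and desaturation, 11 genes were higher and 11 lower in F4/80high TAMs. *Fads1*, a desaturase of polyunsaturated fatty acids, was at 51.7, 87.9 and 53.7 CPM in F4/80high and 29.5, 46.05 and 20.5 CPM in F4/80low TAMs without overlap (log2 fold change 1.05, SE 0.30, adjusted p = 0.504 in edgeR). *Hacd3*, a dehydratase of chain elongation, had a log2 fold change of 0.81, also without overlap. *Me1*, the malic enzyme that supplies NADPH, had -0.67. *Scd4*, a further desaturase, was at 0.0505, 0.3497 and 0 and 1.26, 0.369 and 0.456 CPM without overlap, from 2, 18 and 0 counts in the F4/80high against 50, 15 and 4 in the F4/80low libraries (log2 fold change -2.53, SE 1.57).

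In peroxisomal oxidation 9 were higher and 7 lower. *Abcd2*, a transporter of very long chains into the peroxisome, was at 19.96, 23.2 and 14.3 CPM in F4/80high and 43.98, 36.3 and 26.5 CPM in F4/80low TAMs without overlap (log2 fold change -0.89, SE 0.24, adjusted p = 0.47 in edgeR). *Decr2* and *Hsd17b4*, enzymes of the peroxisomal cycle, had log2 fold changes of 0.67 and 0.50, and *Phyh*, of phytanic acid oxidation, of -0.16.

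Of the other carnitine and mitochondrial genes 10 were higher and 8 lower. *Oxct1*, which serves the use of ketone bodies, was at 58.5, 146 and 94.3 CPM in F4/80high and 51.7, 68.7 and 55.1 CPM in F4/80low TAMs (log2 fold change 0.77, SE 0.33, adjusted p = 0.647 in edgeR). The acyl-CoA dehydrogenases *Acad9* and *Acad10* had 0.54 and -1.22, and *Pdk4*, the kinase that restrains pyruvate oxidation, was at 0, 0 and 0.108 and 0, 0.762 and 0 CPM. Among the other uptake, carriage and activation genes 4 were higher and 9 lower. *Slc27a3*, of the same family as *Slc27a1* and *Slc27a4*, had a log2 fold change of -1.46. *Acss1*, the mitochondrial acetyl-CoA synthetase, had -0.42 without overlap of the subsets, and the Golgi protein *Acbd3* 0.21. *Acsl6* was at 0.328, 1.48 and 0.324 and 0.1004, 0.885 and 0 CPM.

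Among 21 regulators tested, 11 were higher and 10 lower. *Pparg*, a nuclear receptor of lipid storage, was at 2.98, 9.09 and 8.22 CPM in F4/80high and 3.34, 4.94 and 2.28 CPM in F4/80low TAMs (log2 fold change 0.94, SE 0.56, adjusted p = 0.71 in edgeR). *Ppargc1b*, a coactivator, had 1.22, with F4/80high replicate 3 at 29.2 CPM and the other 5 libraries at 1.83 to 5.17 CPM. *Esrra*, the estrogen-related receptor alpha, had -0.38 and *Stk11*, the kinase upstream of AMPK, -0.60. *Ppara* was at 0 counts in all 6 libraries. That allows up to 0.0688 to 0.187 CPM of the total without TMM scaling (3 counts, counting error only).

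**Figure D4:**
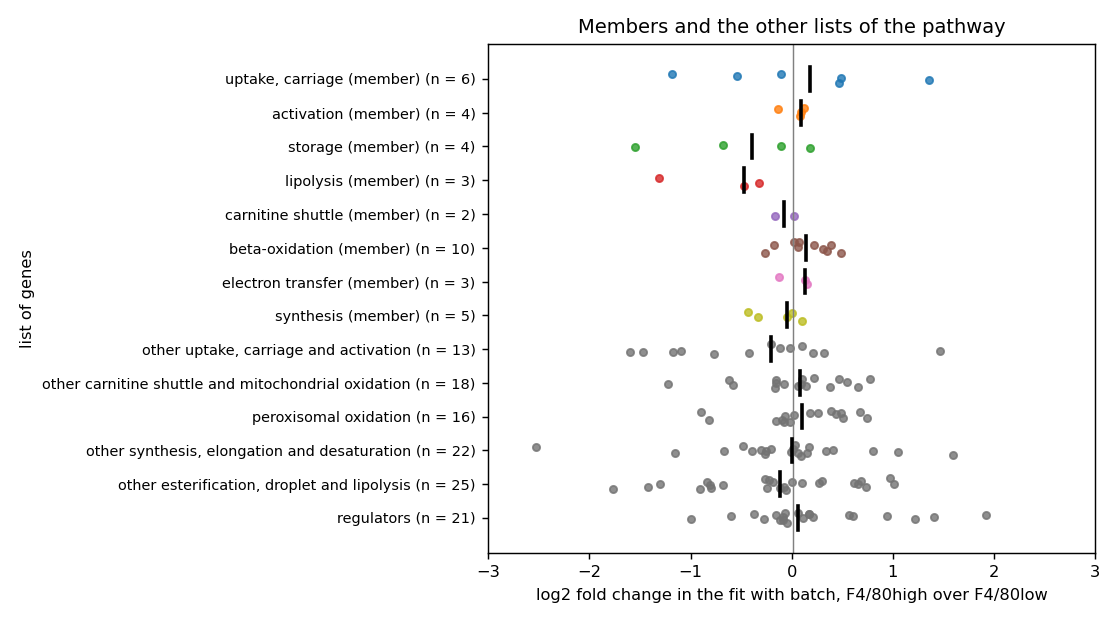
Log2 fold change of F4/80high over F4/80low in the edgeR fit with batch (x axis) for each gene of the 8 role groups of members and the 6 other lists (y axis, n genes tested). Points are genes, black ticks list medians, and the grey line the median of all genes, 0.01. The genes of each list with more than 3 tested lie on both sides of 0. *Pdk4* (31 counts in F4/80low replicate 2 and at most 1 elsewhere) and *Scd3* (12 counts in that library and 0 elsewhere) lie beyond the axis.

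RNA of other sorted or carried-over cells was read from marker lists, and in bulk RNA fewer cells of a type and less RNA per cell cannot be told apart. All 12 neutrophil markers were lower in F4/80high TAMs in all 3 pairs, as were 17.9% of all genes, and summed to 2252, 983 and 781 CPM in F4/80high against 5177, 3285 and 1596 CPM in F4/80low replicates 1, 2 and 3 (exact permutation test, p = 0.2). edgeR with batch called 0 of the 12, edgeR with the block 7 (against 0.519% of all genes) and DESeq2 with batch 6 (against 1.02%). The most abundant was *Retnlg*, at 564, 217 and 219 CPM in F4/80high and 860.2, 1409.5 and 511 CPM in F4/80low TAMs. Of the 10 eosinophil markers 8 were lower in F4/80high in all 3 pairs, and the sum was 543, 274 and 180.3 against 1129, 1550.0 and 412 CPM (exact permutation test, p = 0.2), led by *Alox15* at 346, 175 and 62.1 and 724, 898 and 135 CPM. edgeR called 0 of the 10 with batch or with the block, and DESeq2 with batch called 6. The exact test does not use the replicate pairs.

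Markers of dendritic cells summed to 355, 83.7 and 195 CPM in F4/80high and 594, 205 and 557 CPM in F4/80low TAMs (most abundant *Ccr7*, exact p = 0.2). Fibroblast markers, led by *Col1a2*, summed to 1230.0, 498 and 1639 and 1423, 1182 and 2033 CPM (exact p = 0.5). T and NK cell markers, led by *Gzmb*, summed to 1836, 539 and 324 and 664, 842 and 154 CPM (exact p = 0.7), with F4/80high replicate 1 the highest library. By gene, 10 of the 10 tested were higher in F4/80high TAMs in the fit (against 50.8% of all genes), with a median log2 fold change of 0.85. In pairs 1, 2 and 3 the number higher was 10, 1 and 9. The part of these cells in the difference of *Slc27a1*, which has the same direction in the fit, was not tested. B and plasma cell markers, led by *Xbp1*, summed to 697, 525 and 119 and 705, 734 and 122 CPM (exact p = 0.5). Endothelial markers, led by *Pecam1*, were at 60.6, 33.5 and 112 and 65.3, 46.5 and 125 CPM (exact p = 0.7), and erythroid markers, led by *Hbb-bs*, at 18.1, 74.5 and 33.1 and 19.8, 126 and 26.5 CPM (exact p = 0.8). The sums of the dendritic cell, fibroblast, B and plasma cell, endothelial and adipocyte lists, as well as of the neutrophil and eosinophil lists, were lower in F4/80high TAMs in 3 of 3 pairs, the direction of *Slc27a4*, *Dgat2*, *Mgll* and *G0s2*. For the B and plasma cell list the median log2 fold change of the 8 tested genes was 0.11, opposite in sign to its sum. Their part in those differences was not tested. The CD45+ and CD11b+ gates are meant to remove fibroblasts, endothelial cells, adipocytes and most T and B cells. The text of the study's methods does not say which antibodies made up the Lin gate and refers to supplementary figures for the gating.

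Melanoma markers summed to 20.1, 23.3 and 168 and 15.2, 13.2 and 106 CPM (exact p = 0.5), nearly all of it *Mitf*, which macrophages also express, with *Mlana* at 0 to 0.0251 CPM. Keratinocyte markers, led by *Sfn*, were at 11.4, 6.37 and 7.03 and 10.6, 9.42 and 10.8 CPM (exact p = 0.4), with *Krt15*, *Dsp* and *Lor* at 0. Adipocyte markers, led by *Retn*, were at most 3.42 CPM in sum in any library (exact p = 0.1), and *Adipoq* was at 0 in 5 of 6 libraries.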

How the data were processed

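For every library the authors deposited raw read counts per gene, not normalized, with gene length and biotype. The aligner, genome build, annotation, strand and counting rule are not given in the sources used here. Of the gene IDs, 99.4% matched GENCODE M21, which supplied biotypes and coordinates, and 73.4% of matched genes had the same length there. The 6 libraries were compared and none was a copy of another. The study states 3 independent experiments, and its supplementary principal component plot, not a label, shows replicate 3 as a separate batch.

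Tests were run with edgeR 4.0.16, DESeq2 1.42.0 and limma 3.58.1 in R 4.3.3. Of 15813 protein-coding genes, 14645 with at least 10 counts over the 6 libraries were fitted with TMM scaling and terms for batch and subset, and tested with edgeR's quasi-likelihood test and Benjamini-Hochberg adjustment. The SE is the log2 fold change divided by the root of F, and 95% intervals use the test's degrees of freedom. Pair values are log2 ratios of CPM with 0.5 counts added. TPM was computed from counts and the length in the files. The edgeR fits with batch and with the block and the DESeq2 fit with batch were run on simulated counts, drawn independently for each library. Other steps, among them DESeq2 with the block, were not simulated.

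Replicates of the same number were taken as pairs from their labels and the independent experiments that the study states. Deviations from subset means correlated at 0.721, 0.696 and 0.892 between libraries of replicates 1, 2 and 3 over 10455 genes. These values include the batch difference that both subsets share, so they cannot show how replicates 1 and 2 pair. Within batch 1 the correlation was 0.225. Alternatives were DESeq2, the replicate block, no batch term, other scalings, filters and biotypes, leaving out each library, batch 1 alone and the adjusted p alone. DESeq2 with the block was added after seeing the data.

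The members, lists and rules were chosen with earlier results of these data known. Named in full are, by role, the member with the highest mean TPM, up to 2 with the smallest p in each direction and any called by edgeR with batch or block or by DESeq2 with batch. From each other list the 2 genes with the smallest p in each direction are named, and from marker lists the most abundant and those at 0. *Hadha*, *Hadh*, *Plin2*, *Cd36*, *Acsl4* and *Fasn* were named in more detail after their values were seen. Of the other pathway genes *Slc27a2*, *Fabp1*, *Fabp2*, *Acox2*, *Elovl2*, *Elovl3*, *Plin1*, *Cidec* and *Fitm1* were not analysed here, nor were 5 adipocyte, 5 melanoma and 3 keratinocyte markers.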

Additional observations from a re-analysis of the deposited data

How the results depend on the processing

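The number of genes called across all genes was 0 with the batch term, 150 with DESeq2, 76 with the replicate block and 356 with DESeq2 and the block (chosen after seeing the data), and 0 to 57 when leaving out each library in turn. The 57 arose without F4/80high replicate 1. Members called were 0, 1, 1 and 4 in those designs and 0 to 1 when leaving out a library. Of the other pathway genes DESeq2 called 1 with batch and 2 with the block. All other alternatives called 0 genes, among them no batch term, RLE size factors, library size alone, the count filters, all biotypes, batch 1 alone and the adjusted p alone, and the cause of the differences between tools was not tested. The median of the members ranged from -0.15 to 0.10 when leaving out a library. *Plin2* ranked 2 by mean TPM over the 6 libraries and 3 by CPM without length.

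Of 476 values of members named in full under the alternatives, 437 kept their direction and side of the threshold, 7 passed it and 32 turned sign. In edgeR the block changed the call of *Dgat2* and of no other member, and in DESeq2 the calls of *Slc27a1*, *Dgat2* and *Mgll*. It gave *Cpt1a* -0.057 (-0.063 with DESeq2 and the block). Without a batch term *Scd2* was -0.0097. In batch 1 alone *Acadm* was 0.17, *Acsl1* -0.088, *Acsl3* 0.27, *Etfdh* 0.069 and *Scd2* -0.054. Leaving out a library gave *Acaca* -0.21 to 0.27, *Acadl* -0.030 to 0.13, *Acadm* -0.41 to 0.17, *Acsl1* -0.15 to 0.38, *Acsl3* -0.45 to 0.27, *Acsl5* -0.030 to 0.27, *Cpt1a* -0.53 to 0.47, *Etfa* -0.046 to 0.34, *Etfdh* -0.33 to 0.068, *Fabp5* -0.012 to 0.70, *Plin3* -0.015 to 0.35, *Scd1* -0.69 to 0.055 and *Scd2* -0.056 to 0.11. The sign of these 13 log2 fold changes depended on which library was left out. Without either replicate 3 library, batch 2 holds 1 library and adds nothing to the contrast.

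Depth was lowest in replicate 3. *Acadvl* had 15 and 26 counts there, and with depth scaled its log2 fold change of batch 2 over batch 1 was still -3.54 (SE 0.39). Relative to library totals without TMM scaling, 3 counts are 0.185 and 0.187 CPM in replicate 3 against 0.0688 to 0.0990 CPM elsewhere. With TMM scaling, as in the values per library, 3 counts are 0.324 CPM in F4/80high replicate 3.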
